A study of Mus musculus with 12 samples.

Results

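Meis1, Meis2, Meis3, Pbx2, Pbx3, Pbx4 and Shox2 are homeobox genes, of which Meis1 and Meis2 are known markers of the proximal limb bud. All 7 were followed through 12 RNA-seq libraries of mouse forelimb buds. They were chosen by name: 7 of the 53465 genes in the tables, matched by Ensembl identifier, without regard to their values. The libraries fall into 4 groups of 3, each library made from 1 pair of forelimb buds of Swiss albino mice. In the Tbx3 series (E9.75 to E10, 28 to 31 somites), buds labelled WT were set against buds labelled Tbx3-deficient. The deficient genotype is given as Tbx3ΔVenus/ΔVenus, an allele with a Venus reporter and a transcription stop placed at the start codon of Tbx3. In the Hand2 series (E10 to E10.25, 31 to 33 somites), Prrx1-Cre;Hand2+/+ buds, called wild type, were set against Prrx1-Cre;Hand2Δ/Δc buds, called Hand2-deficient. Every library of the Hand2 series therefore carries Prrx1-Cre, a Cre driver active in limb bud mesenchyme, while the labels of the Tbx3 series name no Cre.

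MEIS and PBX proteins belong to the TALE class of homeodomain proteins, whose homeodomain is enlarged by an insertion of a few amino acids. MEIS proteins bind DNA beside PBX proteins, the pairing holds PBX in the nucleus, and both act as cofactors of HOX proteins. In the vertebrate limb bud MEIS1 and MEIS2 mark the proximal part, where retinoic acid from the flank favours them and FGF signals from the distal ridge restrict them. SHOX2 is a homeodomain protein outside the TALE class, needed in the mouse for the humerus and femur. TBX3 is a T-box repressor and HAND2 a basic helix-loop-helix factor, both of which help to set the anterior and posterior sides of the bud.

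Library totals ran from 23311692 to 31764847 expected counts in the Tbx3 series and from 60183822 to 68568005 in the Hand2 series, so the Hand2 series measured low genes more finely. Levels are given as CPM, counts scaled to a common library size. Hand2 stood at 119.6, 120.3 and 125.7 CPM in its wild types and at 0.187, 2.21 and 0.384 CPM in the Hand2-deficient buds. Tbx3 did not separate the groups of its series, at 77.3 to 79.3 CPM in the wild types and 73.3 to 80.6 CPM in the buds labelled Tbx3-deficient. The counts thus show no loss of Tbx3 transcript in those buds, and the deficient label could not be checked from them. The gene count alone does not show how much TBX3 protein those buds could make. One library, Hand2-deficient replicate 1, had 5.37% of its counts on a single gene, against about 1% or less for the top gene elsewhere. Markers of limb mesenchyme (Prrx1, Tbx5 and 7 others) summed to between 1620 and 2617 CPM in every library, as the tissue label states. By Xist and Y-linked genes the 3 Tbx3 wild types were female, and 2 of the 3 buds labelled Tbx3-deficient were male. The Hand2 wild types held 1 male and the Hand2-deficient group 2.

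Meis1 and Shox2 are shown first by their promoters because of their order within groups. In every group the library highest in Meis1 was the lowest in Shox2, at times narrowly, as shown further on. Each line gives RefSeq sequence of GRCm38.p6, read 5′ to 3′ along the gene from 250 bases before its start to 50 bases after it. Capitals mark a match to a searched motif. Meis1 lies on the minus strand of chromosome 11 and its window is chr11:19018920-19019219. Shox2 lies on the minus strand of chromosome 3 and its window is chr3:66981722-66982021.
Meis1: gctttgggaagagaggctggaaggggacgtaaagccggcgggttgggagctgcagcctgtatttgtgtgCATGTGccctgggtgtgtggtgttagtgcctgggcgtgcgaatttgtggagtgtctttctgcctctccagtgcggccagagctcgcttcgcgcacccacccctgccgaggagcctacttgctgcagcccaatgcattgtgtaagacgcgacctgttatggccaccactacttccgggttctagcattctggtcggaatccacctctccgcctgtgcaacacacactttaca
Shox2: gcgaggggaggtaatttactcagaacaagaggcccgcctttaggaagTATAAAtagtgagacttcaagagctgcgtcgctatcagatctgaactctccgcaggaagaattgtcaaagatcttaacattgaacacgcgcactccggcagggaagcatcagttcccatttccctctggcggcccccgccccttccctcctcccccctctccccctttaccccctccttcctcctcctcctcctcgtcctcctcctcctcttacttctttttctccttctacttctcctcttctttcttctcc
The capitals in Meis1 are an E-box (CANNTG, the general site of helix-loop-helix factors) at position -181, counted from 0 at the gene start. Those in Shox2 are a TATA box (TATAAA) at position -203. Motifs were read on both strands in windows of 300 bases. In all 32851 RefSeq promoter windows, the E-box was found in 72.3% and the TATA box in 13.6%. The other motifs searched were a T-box core site (GGTGTGA, in 3.98% of windows), an E-box form reported for HAND2 (CATCTG, 17.2%, which is also a CANNTG match), a MEIS site (TGACAG, 19.2%) and a PBX-HOX site (TGATNNAT, 8.85%). None of these 4 was found in the windows of the 6 genes with an entry. Besides the matches shown, the set held 1 E-box in Pbx2 at position -210 and 1 TATA box in Meis2 at position -152. Pbx3 had no entry. A missing match says only that these letters are absent from this window.

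Levels between genes were compared as CPM per kilobase (kb) of merged exons, from GENCODE M21 on GRCm38. In all 4 groups the order of the means was Pbx2, Shox2, Meis2, Pbx3, Meis1, Meis3 and Pbx4. Pbx2, which encodes a broadly expressed PBX protein, lay between 65.2 and 68.7 CPM per kb in the 4 group means. Shox2 followed at 38.2 ± 5.83 (SD, n = 3) in the Tbx3 wild types, 18.0 ± 6.58 in buds labelled Tbx3-deficient, 49.9 ± 10.2 in the Hand2 wild types and 32.5 ± 4.42 in the Hand2-deficient buds. Meis2 means lay between 13.7 and 17.01, Pbx3 means between 9.31 and 11.9 and Meis1 means between 7.59 and 10.4 CPM per kb. Meis3 means lay between 3.50 and 6.42 CPM per kb. Pbx4, the PBX gene best known from testis, was lowest, with means between 0.315 and 0.600 CPM per kb. Neighbours in this order did not always separate. Shox2 and Meis2 overlapped in buds labelled Tbx3-deficient, Pbx3 and Meis1 in both groups of the Tbx3 series, and Meis1 and Meis3 in the Tbx3 wild types. All other neighbours had separate ranges, those of the Hand2 series included.

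**Figure D1:**
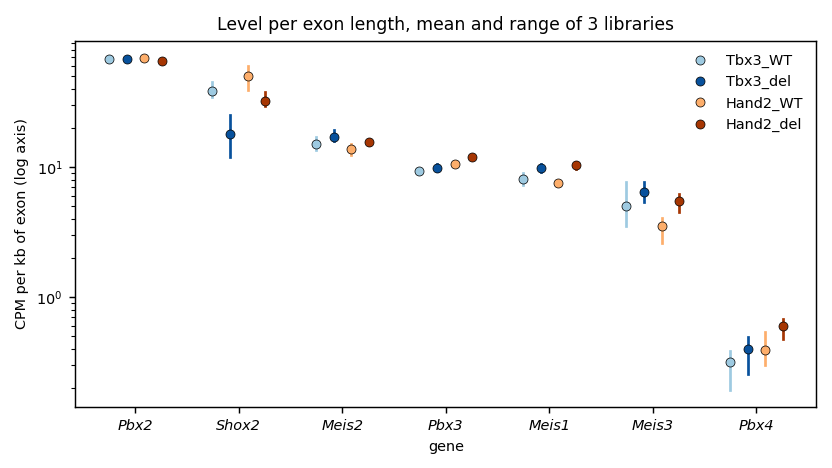
Level of each gene per kilobase of exon (CPM per kb, log axis), as the mean (point) and range (line) of the 3 libraries of each group. Pbx2 is highest and Pbx4 lowest in all 4 groups, and Shox2 shows the widest differences between groups, from 18.0 to 49.9 CPM per kb.

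The Hand2 comparison asks which of these genes differ between Prrx1-Cre;Hand2Δ/Δc and Prrx1-Cre;Hand2+/+ buds. Meis1 and Pbx3 rose and no gene of the set fell by the test, which was edgeR's quasi-likelihood F test with Benjamini-Hochberg adjustment over 17488 genes, called at an adjusted p under 0.05. So 2 of the 7 were called, both higher, against 10.5% of all genes tested (4.68% higher and 5.82% lower). Groups did not overlap for 5 of the 7, 3 higher and 2 lower, against 38.2% of all genes tested (18.7% higher and 19.5% lower). The median log2 fold change was 0.18 over the 7 genes and 0.01 over all genes. In whole buds, fewer cells of a type and less RNA per cell cannot be told apart.

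Meis1 (ENSMUSG00000020160, chromosome 11, 18879817 to 19018985, minus strand), the proximal marker, had 82.4, 81.9 and 75.4 CPM in Hand2 wild-type replicates 1 to 3. In Hand2-deficient replicates 1 to 3 it had 112, 114 and 102 CPM. All deficient libraries thus lay well above all wild types. The means were 79.9 ± 3.89 and 109.7 ± 6.32 CPM (SD, n = 3). Meis1 thus rose 1.37-fold, or 0.46 on the log2 scale (SE 0.0548, edgeR adjusted p = 0.00793). The call held in all 13 alternative analyses, with edgeR adjusted p from 0.0104 to 0.0375 when single libraries were left out.

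Meis2 (ENSMUSG00000027210, chromosome 2, 115863064 to 116065839), the other proximal MEIS gene, had 179.9, 166 and 150.3 CPM in the wild types and 176, 197 and 187 CPM in the deficient buds. Deficient replicate 1 lay inside the wild-type range, so the groups overlapped. The log2 fold change of 0.18 (95% interval -0.0009 to 0.35) was not called, with edgeR adjusted p = 0.156. Meis3 (ENSMUSG00000041420, chromosome 7, 16175090 to 16186504), a MEIS gene better known from the hindbrain, had 12.3, 12.8 and 8.25 CPM in the wild types against 14.2, 19.8 and 18.5 CPM. Every deficient library was above every wild type, although replicate 1 only just. Its log2 fold change of 0.66 (SE 0.193) was not called (edgeR adjusted p = 0.071), but it was called by DESeq2, without a low-count filter and with embryo sex in the fit.

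Pbx3 (ENSMUSG00000038718, chromosome 2, 34171457 to 34373142), which encodes a PBX partner of HOX proteins, had 62.8, 64.1 and 67.6 CPM in the wild types and 71.3, 74.3 and 71.6 CPM in the deficient buds. The groups did not overlap, with a narrow spread in each. The rise was small at 1.117-fold, or 0.16 on the log2 scale (SE 0.0378, edgeR adjusted p = 0.0443). The call was lost in 11 of 13 alternatives, among them all 6 that left out 1 library of either group (edgeR adjusted p from 0.075 to 0.148).

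Pbx2 (ENSMUSG00000034673, chromosome 17, 34591266 to 34597400) had 247, 251 and 252 CPM in the wild types and 236, 244 and 232 CPM in the deficient buds. The deficient libraries were all lower, by a few percent. The log2 fold change was -0.08 (95% interval -0.17 to 0.02, edgeR adjusted p = 0.222). Pbx4 (ENSMUSG00000031860, chromosome 8, 69832491 to 69872292) rested on 42 to 82 expected counts per wild-type library and 71 to 94 per deficient library. At 0.667, 1.19 and 0.756 against 1.51, 1.43 and 1.05 CPM the groups overlapped through wild-type replicate 2. Its log2 fold change of 0.60 (95% interval -0.04 to 1.25) was not called, with edgeR adjusted p = 0.175.

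Shox2 (ENSMUSG00000027833, chromosome 3, 66971727 to 66981771), the gene of the upper arm segment, had 130.3, 168 and 197 CPM in the Hand2 wild types. In the Hand2-deficient buds it had 124, 98.1 and 100.01 CPM. All deficient libraries were lower, but deficient replicate 1 and wild-type replicate 1 lay close together. The means were 165 ± 33.6 and 107 ± 14.6 CPM (SD, n = 3), a ratio of 1.54, with a log2 fold change of -0.62 (SE 0.158). That was just outside the threshold, with edgeR adjusted p = 0.0513, and 5 of 13 alternatives called it lower. One of these left out wild-type replicate 1, after which the log2 fold change was -0.77 (edgeR adjusted p = 0.0374).

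**Figure D2:**
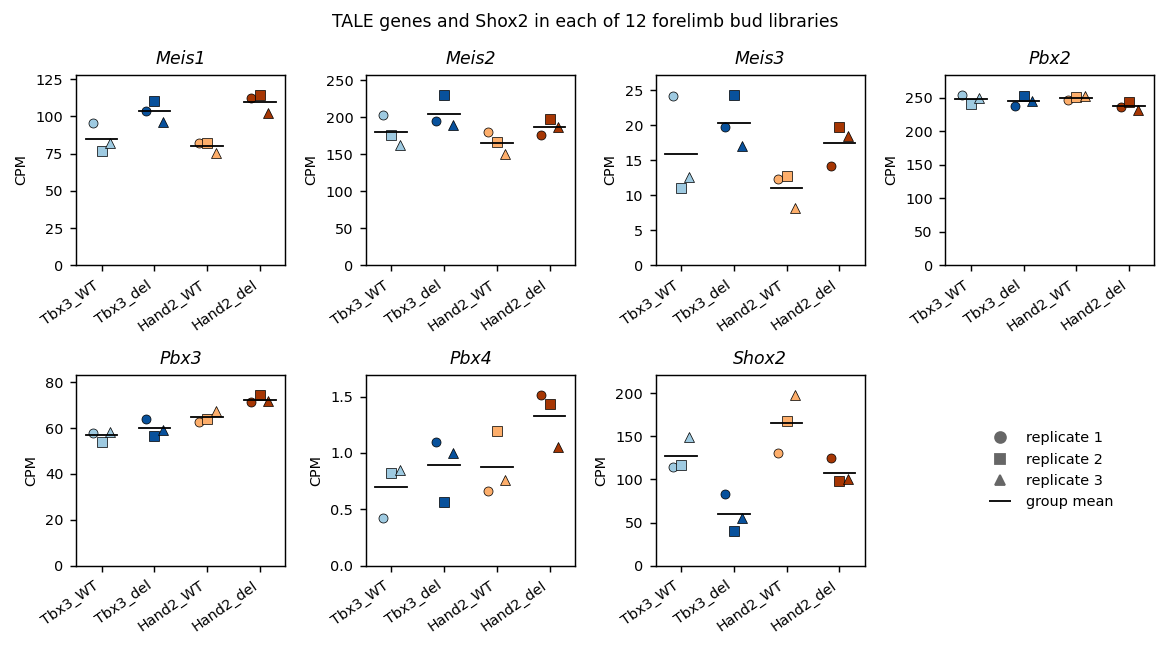
CPM of each gene (vertical axis, from 0) in the 12 libraries by group, with a point shape for each replicate number and a line at the group mean. Meis1 and Pbx3 are higher in every Hand2-deficient library than in any Hand2 wild type, and Shox2 is lower in every deficient library of both series.

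The Tbx3 comparison asks the same of buds labelled Tbx3-deficient. None of the 7 genes was called, against 1.01% of the 15130 genes tested (0.727% higher and 0.284% lower), and 2 of the 7, Meis1 and Shox2, had an unadjusted p under 0.05. These were also the 2 genes whose groups did not overlap, against 20.6% of all genes tested (10.7% higher and 9.95% lower). The median log2 fold change was 0.18 over the 7 genes and -0.003 over all genes. As a measure for counts by unadjusted p in this series, an unadjusted edgeR p of 0.0479 ranked 2100 of the 15130 genes. Embryo sex was unequal between these groups, and 13 genes of the low-oxygen response summed to 3165 to 3568 CPM in the wild types and 4659 to 6529.5 CPM in the deficient buds. Their part in the values of these genes was not tested. A fit with sex as a covariate was run, but every wild type was female. Deficient replicate 3 was the only female deficient library, so the deficient effect in that fit rests on that 1 library.

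Shox2 had 115, 116 and 149 CPM in the Tbx3 wild types and 82.9, 39.8 and 55.8 CPM in the buds labelled Tbx3-deficient. Each deficient library was below each wild type, and deficient replicate 2 had the lowest Shox2 level of the 12 libraries. The means were 126 ± 19.3 and 59.5 ± 21.8 CPM (SD, n = 3), a ratio of 2.13, with a log2 fold change of -1.09 (SE 0.240, 95% interval -1.65 to -0.54). Its edgeR adjusted p was 0.0974, although this was the largest estimated change among the 7 genes in either comparison. Leaving out deficient replicate 1, which had the highest Shox2 of its group, gave -1.40 and a call (edgeR adjusted p = 0.0166). DESeq2 (adjusted p = 0.0317), edgeR without a low-count filter (adjusted p = 0.00173) and the edgeR fit of all 12 libraries (adjusted p = 0.0334) also called Shox2 lower. The other 9 alternatives did not. With single libraries left out, edgeR adjusted p was up to 0.232 (log2 fold change -0.87 without deficient replicate 2). With embryo sex in the fit the log2 fold change was -1.18, an effect that rests on deficient replicate 3.

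Meis1 had 95.4, 76.9 and 82.1 CPM in the Tbx3 wild types and 104, 111 and 95.9 CPM in the buds labelled Tbx3-deficient. The groups did not overlap, but wild-type replicate 1 and deficient replicate 3 differed by under 1 CPM. The log2 fold change was 0.29 (SE 0.0882, 95% interval 0.08 to 0.49, edgeR adjusted p = 0.199). With embryo sex in the fit, where only deficient replicate 3 sets the effect, it was 0.18. Meis2 had 204, 176 and 163 CPM against 195, 230.3 and 189.7 CPM, which overlapped, with a log2 fold change of 0.18 (edgeR adjusted p = 0.48). Without deficient replicate 2 it was 0.09, and with sex in the fit 0.07. Meis3 spread most, at 24.2, 11.1 and 12.6 CPM in the wild types and 19.8, 24.3 and 17.04 CPM in the deficient buds. Wild-type replicate 1 stood near the top of the deficient range. The log2 fold change of 0.36 (SE 0.284, edgeR adjusted p = 0.621) became 0.79 without that library (edgeR adjusted p = 0.121), 0.15 without wild-type replicate 2 and 0.10 with sex in the fit.

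No PBX gene came near a call in the Tbx3 series. Pbx2 had 254, 241 and 249.8 CPM in the wild types and 238, 253 and 245 CPM in the deficient buds, which overlapped throughout. Its log2 fold change was -0.02 (95% interval -0.13 to 0.09, edgeR adjusted p = 0.9). Pbx3 had 58.0, 54.1 and 58.4 CPM against 64.1, 56.7 and 59.4 CPM, again overlapping, with a log2 fold change of 0.08 (95% interval -0.06 to 0.22, edgeR adjusted p = 0.609). Pbx4, on 10 to 27 expected counts per library, had 0.427, 0.823 and 0.845 CPM against 1.099, 0.568 and 1.00 CPM. At that depth its log2 fold change of 0.33 had a 95% interval from -0.57 to 1.23 (edgeR adjusted p = 0.753), and the estimate was 0.09 without wild-type replicate 1 and 0.16 without deficient replicate 1.

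**Figure D3:**
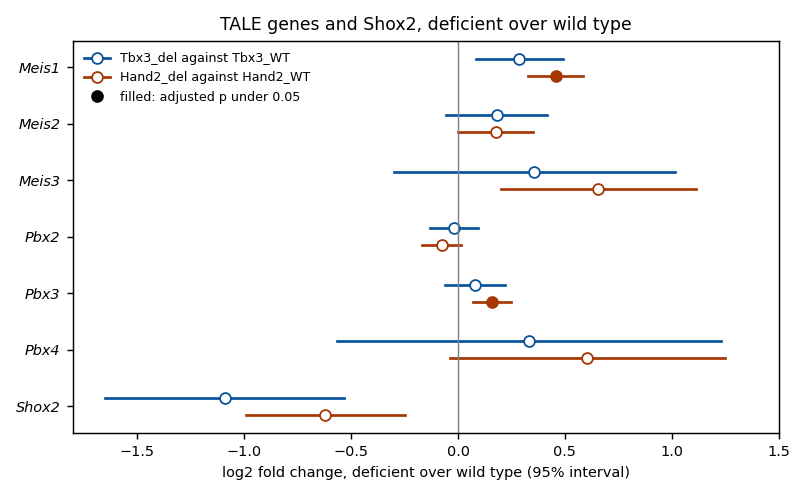
Log2 fold change of each gene, deficient over wild type, with its 95% interval, for the Tbx3 comparison (blue) and the Hand2 comparison (red-brown). Filled points are the 2 calls, Meis1 and Pbx3 in the Hand2 comparison, and Shox2 has its interval below 0 in both.

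Each comparison has its own wild types, so the estimates can be set side by side. All 7 genes had the same sign in both, with Meis1, Meis2, Meis3, Pbx3 and Pbx4 above 0 and Pbx2 and Shox2 below 0. Most of these signs are not settled. The 95% intervals of Meis2, Meis3, Pbx2, Pbx3 and Pbx4 included 0 in the Tbx3 comparison, and those of Meis2, Pbx2 and Pbx4 in the Hand2 comparison. The share of all genes with the same sign in both was not counted. The Pbx2 estimate of the Tbx3 series changed sign when wild-type replicate 1 or deficient replicate 1 was left out. The difference of effects, Hand2 minus Tbx3, was tested in 1 edgeR fit of all 12 libraries and called for none of the 7 genes, against 1.68% of 17360 genes tested (0.789% higher and 0.893% lower). None of the 7 had an unadjusted p under 0.05 there, and DESeq2 called none either. For Meis1 the difference was 0.17 (95% interval -0.08 to 0.42) and for Shox2 0.47 (95% interval -0.23 to 1.18), both on the log2 scale. These intervals are wide, so equal effects are not shown. Between the wild types, Hand2 series over Tbx3 series, none of the 7 was called, against 2.07% of all genes tested (1.05% higher and 1.02% lower), and 1 of the 7 had an unadjusted p under 0.05. The smallest adjusted p was that of Pbx3, at 64.8 against 56.9 CPM (log2 fold change 0.17, edgeR adjusted p = 0.0894). Its unadjusted edgeR p of 0.00466 ranked only 906 of the 17360 genes. DESeq2 called Pbx3 (adjusted p = 0.0415). Meis3 stood at 11.1 against 15.95 CPM (edgeR adjusted p = 0.331) and Shox2 at 165 against 126 CPM (edgeR adjusted p = 0.418). Stage, Prrx1-Cre and depth differ together between the wild types and cannot be told apart.

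Within groups, high Meis1 and Meis2 went with low Shox2. In 4 of 4 groups the library highest in Meis1 was also the highest in Meis2 and the lowest in Shox2. The reverse held less widely. The library highest in Shox2 was the lowest in Meis1 in 1 of 4 groups. It was the lowest in Meis2 in 3 of 4 and in Meis3 in 2 of 4. Meis1 and Pbx2 were highest in the same library in 3 of 4 groups. Some of the 4 of 4 orders rest on near ties. Shox2 was at 114.6 and 116.1 CPM in Tbx3 wild-type replicates 1 and 2. Meis1 was at 82.4 and 81.9 CPM in Hand2 wild-type replicates 1 and 2. Hand2-deficient replicates 2 and 1 had Meis1 at 114.3 and 112.2 CPM, and replicates 2 and 3 had Shox2 at 98.1 and 100.01 CPM. The ratio of Meis1 to Shox2, each per kb, was 0.262, 0.208 and 0.173 in the Tbx3 wild types and 0.394, 0.873 and 0.540 in the buds labelled Tbx3-deficient. It was 0.199, 0.153 and 0.120 in the Hand2 wild types and 0.284, 0.366 and 0.322 in the Hand2-deficient buds. The ratio was thus higher in every deficient library than in any wild type of its series. That order was fixed by the separate Meis1 and Shox2 ranges already given for both series, so it adds no further result. This ratio was formed after the values were seen and has no test.

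Markers of the body wall and coelomic lining, tissue next to the bud, were highest in the same library of each group. The 8 markers (Gata4, Gata5, Gata6, Wt1, Upk3b, Upk1b, Msln and Tcf21) summed to 48.8, 9.10 and 16.1 CPM in the Tbx3 wild types and 71.2, 99.0 and 49.1 CPM in the buds labelled Tbx3-deficient. They summed to 35.5, 17.5 and 6.94 CPM in the Hand2 wild types and 28.2, 60.4 and 44.7 CPM in the Hand2-deficient buds. None was at 0 in all libraries, while Msln stayed at 0.222 CPM or less and Upk1b at 0.713 CPM or less. In 4 of 4 groups the library with the highest sum was also the highest in Meis1 and Meis2 and the lowest in Shox2. In 3 of 4 it was the highest in Meis3, and in 3 of 4 the highest in Pbx2, so the order is not particular to the MEIS genes. It was the lowest in Pbx4 in 3 of 4 groups and the lowest in Pbx3 in 2 of 4. These orders include the near ties given above. Of the 6 markers tested in each comparison, none was called in the Tbx3 series. Over all genes, 1.01% were called there and 10.5% in the Hand2 series. In the Hand2 series Gata4, a zinc finger factor, was called higher, at 0.570 against 4.98 CPM (edgeR adjusted p = 0.0402), a call lost when any library but wild-type replicate 1 was left out (edgeR adjusted p up to 0.137). The median log2 fold change of the 6 was 1.62 in the Tbx3 series, where 2 had an unadjusted p under 0.05, and 1.118 in the Hand2 series. The part of such tissue in the levels of the 7 genes was not tested.

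Single libraries of each group, picked after the values were seen for the closeness of these sums, can be set side by side. Hand2-deficient replicate 1 had a lower sum than Hand2 wild-type replicate 1 (28.2 against 35.5 CPM), and its Meis1 level was 112 against 82.4 CPM. Pbx3 was at 71.3 against 62.8 CPM in the same libraries, while Shox2 was at 124 against 130.3 CPM and Meis2 at 176 against 179.9 CPM. In the Tbx3 series, deficient replicate 3 and wild-type replicate 1 had sums of 49.1 and 48.8 CPM. Shox2 was at 55.8 against 115 CPM there, Meis1 at 95.9 against 95.4 CPM and Meis3 at 17.04 against 24.2 CPM. Hand2-deficient replicate 1 is also the library with 5.37% of its counts on a single gene. Each reading rests on 1 library per group and has no test. Single libraries cannot show the part of body wall tissue in these levels.

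**Figure D4:**
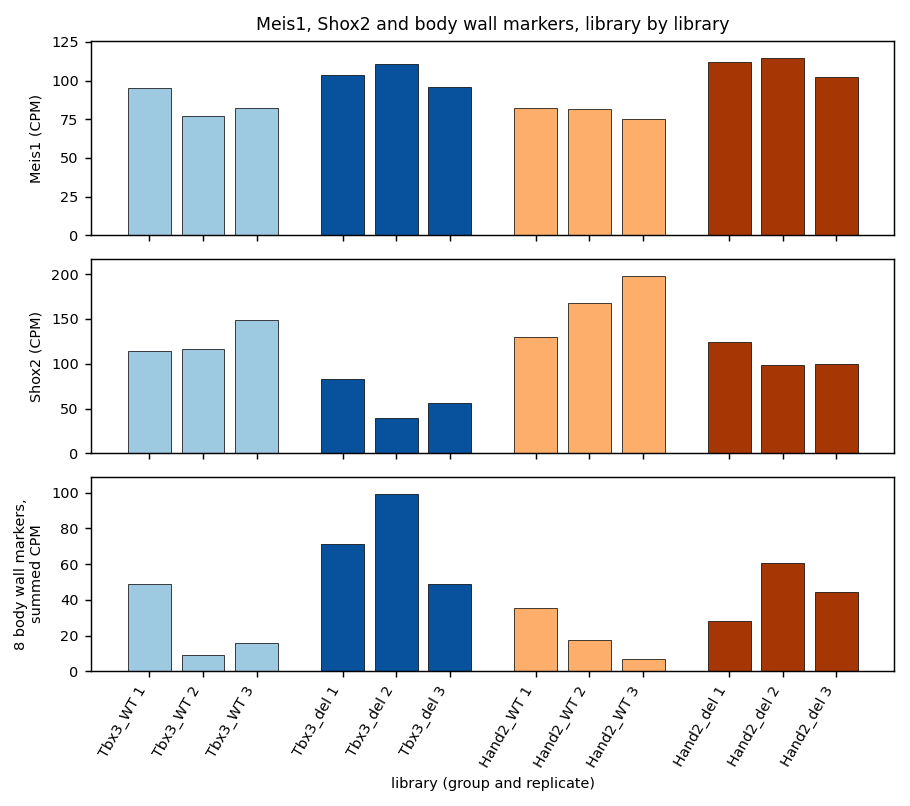
CPM of Meis1 (top), CPM of Shox2 (middle) and summed CPM of 8 body wall and coelomic markers (bottom) as bars from 0 for each of the 12 libraries, grouped by genotype. Within each group the library with the tallest bottom bar has the tallest Meis1 bar and the shortest Shox2 bar, at times narrowly. An example is Tbx3_del replicate 2, with 111 CPM of Meis1, 39.8 CPM of Shox2 and a marker sum of 99.0 CPM.

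Across all 12 libraries, after each series' own mean was subtracted from log2 CPM (prior count 2), Meis2 and Meis3 were the most alike of the 7 genes, with Pearson r = 0.91. Meis1 followed Meis3 with 0.86, Meis2 with 0.80 and Pbx3 with 0.71. Shox2 ran against Meis2 (-0.83), Meis1 (-0.74) and Meis3 (-0.68). Pbx2 was against Pbx4 (-0.61) and Pbx3 (-0.50). Of genes with at least 5 CPM in both series, 0.423% ran more strongly against Meis2 than Shox2 did. For Meis1 that share was 8.57% and for Meis3 4.79%. Ranked by r with Shox2, 1.27% lay below Meis2, 3.23% below Meis1 and 5.33% below Meis3. More strongly than Pbx2, 9.22% ran against Pbx4 and 23.2% against Pbx3. With Meis1, 94.2% had a lower r than Pbx3. The 12 points share 4 groups and 2 series, so these values describe the libraries and carry no p.

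**Figure D5:**
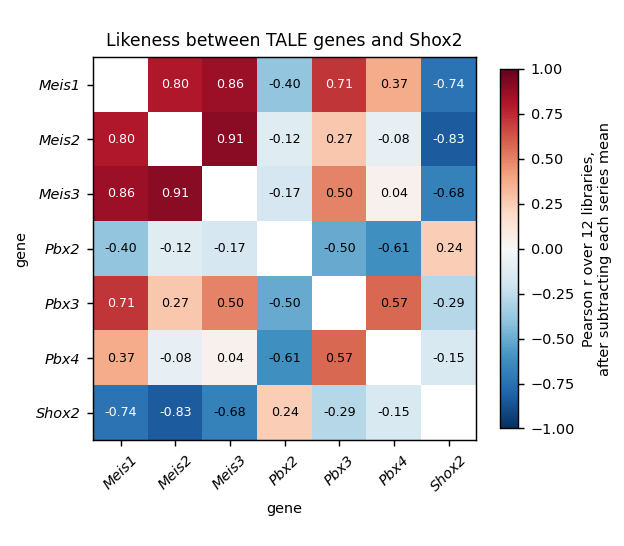
Pearson r between each pair of the 7 genes over the 12 libraries, after subtracting each series' mean, as colour and number (blue -1, red 1). The 3 MEIS genes form a block from 0.80 to 0.91, and Shox2 is negative with all 3.

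Among 10645 genes with at least 5 CPM in both series, Ext2, which encodes an enzyme of heparan sulfate synthesis, was among the 3 closest to Meis1 by the same measure (0.964). The closest to Shox2 were Hoxa11 (0.980), Hoxa10 (0.977) and Fnbp1l (0.976). The closest to Meis2 were Colec12 (0.972), Adamts1 (0.938) and Asnsd1 (0.931). Meis3 was closest to Plat (0.969), Mvb12b (0.958) and Hoxa2 (0.947). Pbx2 was closest to Gadd45gip1 (0.925), Nme1 (0.915) and Mpp5 (0.910), Pbx3 to Psrc1 (0.952), H2-Q7 (0.903) and Rgl2 (0.902), and Pbx4 to Tram1l1 (0.919), Nr1h2 (0.917) and Ethe1 (0.892). The highest of 10645 values is large by selection, and the 12 libraries are shared, so these names describe only likeness.

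Of the other TALE genes (Pknox, Tgif, Mkx and Irx families, 11 genes), 3 of 11 tested were called in the Hand2 series. That compares with 10.5% of all genes tested. Irx3 and Irx5, Iroquois genes of the proximal and anterior bud, rose from 105 to 162 CPM (edgeR adjusted p = 0.011) and from 29.4 to 44.2 CPM (edgeR adjusted p = 0.0196). Tgif2, a repressor gene, fell from 123 to 104 CPM (edgeR adjusted p = 0.0137). The Irx3 call was lost without wild-type replicate 3 (edgeR adjusted p = 0.0584), that of Tgif2 without wild-type or deficient replicate 3, and that of Irx5 without wild-type replicates 1 or 3 or deficient replicate 3 (edgeR adjusted p up to 0.0831). None of the 10 tested in the Tbx3 series was called, against 1.01% of all genes, and 6 had an unadjusted p under 0.05. Irx3 was at 129.5 and 174 CPM (edgeR adjusted p = 0.0684, and 0.0297 without wild-type replicate 1) and Pknox2, a relative of the MEIS genes, at 4.31 and 9.751 CPM (edgeR adjusted p = 0.069). The median log2 fold change of this list was 0.12 for Hand2 and 0.31 for Tbx3.

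Retinoic acid genes (14) make, bind or degrade the signal that favours MEIS genes. Of those tested, 2 of 13 were called in the Hand2 series and 0 of 12 in the Tbx3 series. Over all genes tested the shares were 10.5% and 1.01%. Dhrs3, a retinaldehyde reductase gene, rose from 4.60 to 6.84 CPM (edgeR adjusted p = 0.0353), a call lost when any library but wild-type replicate 2 was left out (edgeR adjusted p up to 0.122). The 12 tested in the Tbx3 series had 9 at an unadjusted p under 0.05 and a median log2 fold change of 0.38, against 0.13 in the Hand2 series. In the buds of the Tbx3 series Crabp1, a carrier of retinoic acid, was at 413 and 488 CPM (edgeR adjusted p = 0.0967) and Cyp26b1, which degrades it, at 75.8 and 106 CPM (edgeR adjusted p = 0.0994). Aldh1a2, the gene of the synthesising enzyme and named here after its values were seen, had the same order as the body wall sum within each of the 4 groups. It had 18.9, 2.51 and 8.37 CPM against 39.5, 56.6 and 35.6 CPM in the Tbx3 series (edgeR adjusted p = 0.128), and 15.7, 10.1 and 0.756 against 8.64, 31.8 and 21.1 CPM in the Hand2 series (edgeR adjusted p = 0.378).

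Distal FGF genes (12), of the signal that restricts MEIS genes, had 5 of 12 called lower in the Hand2 series. Over all genes that share was 5.82%. In the Tbx3 series 0 of 12 were called, against 1.01%. The ridge ligand Fgf8 fell from 44.3 to 26.3 CPM (edgeR adjusted p = 0.0144), Fgf4 from 2.48 to 0.464 CPM (edgeR adjusted p = 0.0294) and Fgf9 from 1.63 to 0.767 CPM (edgeR adjusted p = 0.0296). The FGF response gene Spry4 fell from 58.3 to 40.6 CPM (edgeR adjusted p = 0.00448). The list's other FGF response genes, named here after their values were seen, were not called and did not all fall. Dusp6 was at 203.4, 198.3 and 222.6 CPM in the wild types and 227.7, 226.9 and 226.3 CPM in the deficient buds. Etv4 was lower in every deficient library, and Spry1, Spry2 and Etv5 overlapped. The Fgf8 call was lost without wild-type replicate 3 (edgeR adjusted p = 0.062), and those of Fgf4 and Fgf9 without that library or any 1 deficient library (edgeR adjusted p up to 0.106). The list's median log2 fold change was -0.17 in the Hand2 series and -0.004 in the Tbx3 series, where 2 genes had an unadjusted p under 0.05. These were Fgf9, at 1.37 and 2.08 CPM (edgeR adjusted p = 0.264), and Spry1, at 73.1 and 64.9 CPM (edgeR adjusted p = 0.338).

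HOX genes of the arm segments (Hoxa9 to Hoxa13 and Hoxd9 to Hoxd13, 9 genes) are partners of TALE proteins. In the Hand2 series 4 of 9 were called lower, against 5.82% of all genes. In the Tbx3 series 0 of 8 were called, against 1.01%. Hoxd11 fell from 89.8 to 15.8 CPM (edgeR adjusted p = 0.00145), Hoxd13 from 56.9 to 7.81 CPM (edgeR adjusted p = 0.00174) and Hoxd12 from 20.4 to 0.917 CPM (edgeR adjusted p = 0.00374). Hoxa11, closest of all genes to Shox2 across the libraries, fell from 94.4 to 69.5 CPM (edgeR adjusted p = 0.0449), a call lost when any library but wild-type replicate 1 was left out (edgeR adjusted p up to 0.134). The median log2 fold change was -0.44 in the Hand2 series and -0.72 in the Tbx3 series, where 7 of 8 did not overlap, were lower and had an unadjusted p under 0.05. Of all genes tested in the Tbx3 series, 9.95% were lower without overlap. Hoxd10 was at 86.7 and 53.9 CPM there (edgeR adjusted p = 0.0881) and Hoxd11 at 81.0 and 28.1 CPM (edgeR adjusted p = 0.122).

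Cartilage genes (10) had 2 of 9 called in the Hand2 series, against 10.5% of all genes tested (1.01% in the Tbx3 series). Sox5, a cartilage factor, rose from 24.0 to 36.5 CPM (edgeR adjusted p = 0.0372). Snai1, a zinc finger repressor, fell from 77.7 to 54.8 CPM (edgeR adjusted p = 0.0101). The Sox5 call was lost without replicate 1 or 3 of either group (edgeR adjusted p up to 0.103). None of 8 was called in the Tbx3 series (2 at an unadjusted p under 0.05), where Sox6 was at 21.9 and 32.8 CPM (edgeR adjusted p = 0.131) and Bmp4 at 57.4 and 65.9 CPM (edgeR adjusted p = 0.269). Of the 24 list genes that the naming rule takes with a call in the Hand2 comparison, targeted gene included, 6 kept the call whichever library was left out (Hand2, Spry4, Hoxd11, Hoxd12, Hoxd13 and Snai1).

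Limb mesenchyme markers (9) had 5 of 9 called in the Hand2 series, against 10.5% of all genes tested (1.01% in the Tbx3 series). Prrx2 rose from 139.6 to 202 CPM (edgeR adjusted p = 0.021), Lhx9 from 272 to 395 CPM (edgeR adjusted p = 0.022) and Lhx2 from 184 to 253 CPM (edgeR adjusted p = 0.0474), while Fgf10 fell from 40.1 to 26.2 CPM (edgeR adjusted p = 0.0387). The Lhx2 call was lost without any 1 library, that of Fgf10 without replicate 1 or 3 of either group, that of Prrx2 without wild-type replicates 1 or 3 or deficient replicate 3, and that of Lhx9 without wild-type replicate 1 or deficient replicates 1 or 3 (edgeR adjusted p up to 0.132). Of 9 tested in the Tbx3 series Tbx5, the forelimb factor, alone was called, falling from 90.2 to 62.4 CPM (edgeR adjusted p = 0.0397), a call lost when any library but deficient replicate 1 was left out (edgeR adjusted p up to 0.142). Hypoxia and glycolysis genes (13) had 11 called higher in the Tbx3 series, against 0.727% of all genes tested. Examples are Pdk1 at 70.6 and 202 CPM (edgeR adjusted p = 0.0149) and Vegfa at 45.8 and 71.1 CPM (edgeR adjusted p = 0.0125). Neither Pdk1 nor Vegfa kept the call with embryo sex in the fit, where the effect rests on deficient replicate 3. The Vegfa call was also lost without wild-type replicate 2, and that of Pdk1 without wild-type replicates 1 or 3 or deficient replicate 2 (edgeR adjusted p up to 0.0717). In the Hand2 series 1 was called, against 10.5% of all genes tested. This was Adm, at 0.511 and 1.04 CPM (edgeR adjusted p = 0.0221). The call was lost when any library but wild-type replicate 2 was left out (edgeR adjusted p up to 0.0854). The list's median log2 fold change was 1.52 for Tbx3 and -0.07 for Hand2.

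Markers of other cell types were mostly not called. For the Tbx3 buds this held for the somite, neural, endothelial, macrophage and red cell lists, and the ectoderm list had 1 of 9, Cldn6, which rose from 33.0 to 44.3 CPM (edgeR adjusted p = 0.0439). Uncalled genes were not shown to be equal. In the Tbx3 series 4 of 6 somite, 2 of 7 neural, 2 of 6 endothelial and 2 of 2 macrophage genes tested had an unadjusted p under 0.05. The somite gene Meox1 was at 20.3 and 35.4 CPM (edgeR adjusted p = 0.0512), without overlap. In the Hand2 series the somite, ectoderm, macrophage and red cell lists had none, and the others had 1 each. Over all genes tested the called share was 10.5% in the Hand2 series and 1.01% in the Tbx3 series. Cdh5, an endothelial adhesion gene, rose from 77.1 to 86.4 CPM (edgeR adjusted p = 0.0439) and Stmn2, a neuron gene, from 1.64 to 2.79 CPM (edgeR adjusted p = 0.0368). The calls of Cldn6 and Cdh5 were lost without any 1 library, and that of Stmn2 without any but Hand2 wild-type replicate 2 (edgeR adjusted p up to 0.158). Summed macrophage markers stood at 1.3 to 3.76 and 4.83 to 6.19 CPM in the wild-type and deficient groups of the Tbx3 series, and at 3.27 to 5.04 and 5.57 to 11.3 CPM in the Hand2 series. Their part in the levels of the 7 genes was not tested.

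Some genes lie across others. Rsrc1, on the opposite strand, covers 4.62% of the Shox2 exons, and Gpsm3, on the same strand, 6.24% of those of Pbx2. Gm37818 covers 9.77% of the Meis1 exons on the same strand but had 12.4 to 88.9 expected counts per library, against 1774 or more for Meis1. Rsrc1 was not called in either comparison, with log2 fold changes of -0.23 (Tbx3, edgeR adjusted p = 0.211) and -0.06 (Hand2, edgeR adjusted p = 0.441). The sources used here do not state whether reads were counted by strand, so reads in the shared stretches cannot be assigned with certainty.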

How the data were processed

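RNA from forelimb buds was sequenced in 12 libraries (85 bp single-end reads, SMARTer kit, per the labels). The deposited values are RSEM expected counts per Ensembl gene, not normalised. The submitters' processing notes name FastQC 0.11.4, STAR 2.5.2, RSEM 1.3.0 and mm10. Between 12.5% and 16.2% of values per library were not whole, and all were rounded before testing. RSEM shares ambiguous reads between genes by estimate, which can shift counts of overlapping or related genes. Symbols and exon lengths came from GENCODE M21, and 53274 of 53465 genes had a symbol.

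Deficient and wild-type buds of 1 series were compared by edgeR's quasi-likelihood F test (version 4.0.16, R 4.3.3) on their 6 libraries after TMM scaling. Genes of low count were removed by filterByExpr, whose minimum count was 10 and minimum total 15, and p-values were adjusted by Benjamini-Hochberg across every gene left. A standard error was taken as the size of the log2 fold change over the root of its F value. Levels were scaled by TMM within a series, and the difference of effects and the wild types were tested in the 12-library fit. Alternatives were RLE scaling, DESeq2 1.42.0, limma-voom 3.58.1, no low-count filter, a replicate block, embryo sex, the fit of all 12 libraries and each library left out. The scripts were tested on simulated data. The labels name no molecular identifiers, so reads may repeat molecules.

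Replicates are separate bud pairs. Litters are not given, so p-values measure the spread between these libraries. Replicates differed beyond counting error in every group.

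The 7 genes, the 14 gene lists (130 entries) and the tests were chosen with earlier results of these data known. Named are the 7 genes, both targeted genes, up to 4 called genes per list and comparison (otherwise the 2 with the smallest adjusted p) and the 3 genes most like each of the 7. Overlapping genes were added after the data were seen. Some genes this rule names are not reported here.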

Additional observations from a re-analysis of the deposited data

Results flagged for a closer look

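None of the 7 genes differed between the Hand2 and Tbx3 effects by the edgeR test of that difference. Among the genes named beside them, 12 did, where naming takes at most 4 called genes per list. Of the 13 hypoxia and glycolysis genes, 9 were called lower in this test, so not all are named. Each value is the Hand2 effect minus the Tbx3 effect on the log2 scale. The targeted gene Hand2 differed by -6.55, and the TALE gene Tgif2 by -0.43. Crabp2, a retinoic acid carrier gene, differed by 0.32, Fgf9 by -1.68 and Hoxd13 by -2.10. The mesenchyme genes Prrx2 and Lhx2 differed by 0.71 and 0.74, and the ectoderm gene Cldn6 by -0.57. The low-oxygen response genes Pdk1, Egln3, Pfkp and Pgk1 differed by -1.79, -1.76, -1.46 and -0.94. When each of 12 libraries was left out in turn, 5 of the 12 kept the call throughout (Hand2, Prrx2, Cldn6, Egln3 and Pdk1). Stage, Prrx1-Cre, kind of allele and depth differ together between the series and cannot be told apart.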

How the results depend on the processing

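Over the 7 genes and 4 contrasts, 385 of 420 alternative values kept direction and side of the threshold, 11 lost a call, 13 gained one and 11 changed sign. In the Tbx3 comparison the count of called genes among the 7 went from 0 to 1, Shox2, with DESeq2, with no low-count filter and in the fit of all 12 libraries, and ranged from 0 to 1 with single libraries left out. The count over all genes went from 153 to 551 (DESeq2), 99 (limma-voom), 504 (no filter), 422 (all 12 libraries) and 22 (embryo sex), and from 23 to 220 with single libraries left out. In the Hand2 comparison the count among the 7 went from 2 to 4 with DESeq2 (Meis1, Meis3, Pbx3 and Shox2) and to 1, Meis1, with limma-voom and in the fit of all 12 libraries. It ranged from 1 to 2 with single libraries left out. The count over all genes went from 1836 to 3451 (DESeq2) and 526 (embryo sex), and from 218 to 2223 with single libraries left out. Between wild types DESeq2 called 1 of the 7, Pbx3 (adjusted p = 0.0415). The cause was not tested, beyond the smaller number of libraries in the fits that left one out.

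Replicate numbers did not pair the samples: same-numbered deviations correlated by 0.08, 0.02 and -0.02 in the Tbx3 series and by -0.19, 0.05 and 0.11 in the Hand2 series. With a replicate block, 0 of the 7 genes were called in the Tbx3 comparison and 1, Meis1, in the Hand2 comparison, and 87 and 161 genes were called in all.

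Signs changed for estimates near 0 or with wide errors. With single libraries left out, Pbx2 in the Tbx3 comparison ranged from -0.0404 to 0.00605 and between wild types from -0.0275 to 0.0162. Without a low-count filter Pbx2 between wild types was 0.0181. The difference of effects ranged from -0.103 to 0.0897 for Meis2 and from -0.134 to 0.504 for Meis3 with single libraries left out. Tbx3 in its own comparison ranged from -0.0340 to 0.0314. With embryo sex in the fit, Alas2 was 0.0796 and Hbb-y 0.145.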
